A study of Homo sapiens with 12 samples.

Results

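Broad H3K4me3 regions of KBM-7 cells were the long unbroken stretches of trimethylated lysine 4 on histone H3. KBM-7 is an established human cell line that came from a chronic myeloid leukaemia and carries nearly a single set of chromosomes. Overlapping or adjacent deposited H3K4me3 intervals were joined, and regions of at least 3000 bp that did not touch H3K27me3 were kept. Chromosome 8 and chromosome 15 from 61 to 90 Mb, which this line carries in extra copies, were left out. The rule kept 232 of the 14803 H3K4me3 regions, or 1.57%. Among the 13618 regions that met every other part of the rule they made up 1.70%, and the other 13386 are called narrower regions here. Width and the absence of H3K27me3 chose the regions, so both are given as description: members were selected on width of at least 3000 bp.

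The series mapped 9 histone marks by chromatin immunoprecipitation and sequencing in untreated KBM-7 cells, with 1 library per mark, 3 inputs and no replicate. All libraries come from this 1 line, and no genotype or treatment was compared. By the labels, 1 input served H3K9ac, H3K4me3 and H3K79me2, another served H3K27ac, H3K4me1, H3K4me2, H3K36me3 and H4K16ac, and a further one H3K27me3. The deposited data are called intervals without counts or signal, so depth is unknown and no difference could be set against replicate error. Intervals labelled H3K36me3 and H4K16ac were identical and are treated as 1 set under both names. Wilson 95% intervals are given for shares of regions; they cover counting error only, and regions of 1 library are not replicates.

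H3K4me3 is laid down by SET1 and MLL complexes at the starts of active or poised genes, usually on the nucleosomes just after the start. In many cell types the widest H3K4me3 regions lie at genes that define the cell, and broad H3K4me3 has also been described at tumour suppressor genes. H3K9ac and H3K27ac are acetylations of active promoters and enhancers, H3K4me1 and H3K4me2 flank starts and mark enhancers, H3K79me2 is laid down by DOT1L over the first part of transcribed genes, and H3K36me3 follows over the gene body.

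To show what DNA lies at the starts of these regions, the 300 bp RefSeq promoters of 5 genes (250 bp before to 50 bp after the start, GRCh38.p14) are printed 5′ to 3′. All 5 lie on the minus strand. In the first 4, capitals mark each CG dinucleotide. IRF2BP2 (chr1:234610129-234610428), a transcriptional co-repressor, held 48 CG and was the richest of the 4. GATA2 (chr3:128493152-128493451), a transcription factor of blood stem and progenitor cells, held 29. ZEB2 (chr2:144520070-144520369), a zinc-finger repressor, held 14. HDGF (chr1:156752399-156752698), a growth factor that also binds chromatin, held 7 and was chosen after its values were seen.
IRF2BP2: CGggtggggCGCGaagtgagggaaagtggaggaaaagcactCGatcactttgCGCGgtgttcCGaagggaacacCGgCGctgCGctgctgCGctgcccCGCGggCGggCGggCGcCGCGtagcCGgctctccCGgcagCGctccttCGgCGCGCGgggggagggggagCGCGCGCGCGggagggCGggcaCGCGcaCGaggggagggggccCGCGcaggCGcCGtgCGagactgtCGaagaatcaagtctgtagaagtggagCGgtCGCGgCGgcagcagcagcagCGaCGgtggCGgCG
GATA2: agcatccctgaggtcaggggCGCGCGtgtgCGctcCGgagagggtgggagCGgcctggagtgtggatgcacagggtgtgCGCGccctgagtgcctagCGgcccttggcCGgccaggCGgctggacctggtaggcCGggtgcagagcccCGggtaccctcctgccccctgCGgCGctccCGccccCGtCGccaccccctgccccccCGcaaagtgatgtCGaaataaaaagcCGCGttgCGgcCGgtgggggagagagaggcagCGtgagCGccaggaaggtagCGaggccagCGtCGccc
ZEB2: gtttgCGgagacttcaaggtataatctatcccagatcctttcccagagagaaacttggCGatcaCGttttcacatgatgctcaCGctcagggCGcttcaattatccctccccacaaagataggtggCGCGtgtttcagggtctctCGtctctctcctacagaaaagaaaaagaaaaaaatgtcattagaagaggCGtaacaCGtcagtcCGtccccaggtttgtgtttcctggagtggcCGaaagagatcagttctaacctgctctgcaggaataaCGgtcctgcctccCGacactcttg
HDGF: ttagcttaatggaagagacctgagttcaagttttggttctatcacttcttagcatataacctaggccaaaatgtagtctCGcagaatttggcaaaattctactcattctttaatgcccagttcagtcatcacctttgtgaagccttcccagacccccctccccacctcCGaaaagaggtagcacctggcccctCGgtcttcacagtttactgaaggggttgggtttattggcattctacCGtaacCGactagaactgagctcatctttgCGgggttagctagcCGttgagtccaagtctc
The H3K4me3 regions at these starts were 7500, 7950, 5700 and 4350 bp wide in that order. They covered 72, 299, 131 and 300 bp of the printed windows, so that at IRF2BP2 and ZEB2 most of the window lay outside the region.

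The promoter of CISH (chr3:50611725-50612024), a feedback inhibitor of cytokine signalling that STAT5 induces, is printed with capitals for another motif. The letters TTCNNNGAA, the spaced half-sites that STAT factors bind, occurred 4 times in it and are in capitals.
CISH: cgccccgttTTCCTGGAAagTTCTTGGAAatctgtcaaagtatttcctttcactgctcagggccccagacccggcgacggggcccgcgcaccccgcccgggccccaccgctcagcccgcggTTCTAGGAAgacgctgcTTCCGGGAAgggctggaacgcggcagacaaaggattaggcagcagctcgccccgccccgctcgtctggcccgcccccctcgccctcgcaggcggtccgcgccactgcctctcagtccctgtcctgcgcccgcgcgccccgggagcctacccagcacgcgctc
A region of 6900 bp lay over this start and covered 226 bp of the window. The motif is a description of letters and not a mapped binding site.

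By width, the regions ran from 3000 to 9600 bp with a median of 3450 bp (interquartile range 3150 to 3900), against a median of 900 bp for narrower ones. Of the 232 regions, 48 reached 4000 bp and 18 exceeded 5000 bp. Together they held 6.16% of the H3K4me3 bp on the DNA used. The widest, 9600 bp at chr9:136657351-136666950, lay at EGFL7, a secreted regulator of vessel growth and host of a microRNA, and at LNCEGFL7OS. CD69, an early activation antigen of blood cells, had 8700 bp at chr12:9752851-9761550. SOCS2, another STAT5-induced inhibitor of cytokine signalling, had 7950 bp at chr12:93569101-93577050, and GATA2 had the same width at chr3:128485501-128493450. These 4 leading regions thus lay at a vessel regulator, an activation antigen, a feedback gene of cytokine signalling and a blood transcription factor.

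Next in width came IRF2BP2 with 7500 bp (chr1:234602701-234610200), BCL11A, a repressor of fetal globin genes, with 7350 bp (chr2:60548701-60556050), and the non-coding RNA MALAT1 with 7200 bp (chr11:65499001-65506200). CISH shared its 6900 bp (chr3:50605051-50611950) with the start of the kinase gene MAPKAPK3. RUNX1, a master factor of blood formation, had 6600 bp (chr21:34883551-34890150), the same width as the glycolytic gene PGK1 (chrX:78104101-78110700). Another RUNX1 region of 3150 bp lay at chr21:35046001-35049150. RCC1 with SNHG3, FAM78A, and ZEB2 each had 5700 bp, and NEAT1, the scaffold RNA of paraspeckles, and TNRC18 with LINC02983 each had 5250 bp. Housekeeping and non-coding genes were thus interleaved with blood regulators among the 15 widest.

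**Figure D1:**
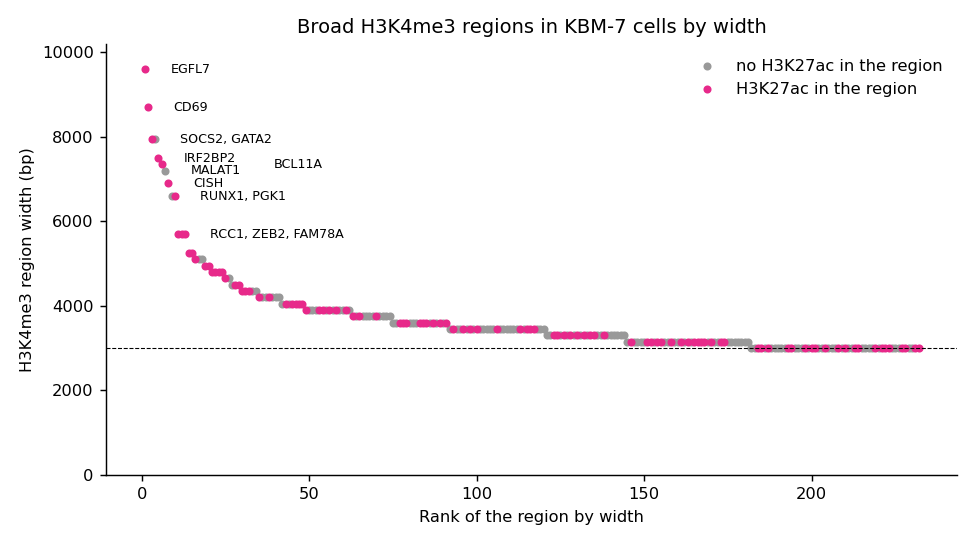
Each point is 1 of the 232 broad H3K4me3 regions, ordered by width (x axis, rank; y axis, width in bp), coloured by whether any H3K27ac interval overlapped it; the dashed line is the minimum of 3000 bp. Widths fall from 9600 bp at EGFL7 to 51 regions at exactly 3000 bp, and both colours occur over the whole range.

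At the minimum, 51 regions measured exactly 3000 bp and 62 measured 2850 bp, the next step down. SKI, a repressor of TGF-beta signalling, KDM1A, an H3K4 demethylase, and ARF1, a trafficking GTPase, were just inside. HNRNPR, RABGGTB and EGLN1 were just outside. Of all 375 H3K4me3 regions of at least 3000 bp, 101 lay on chromosome 8, 41 lay on the left-out stretch of chromosome 15, and 1 other touched H3K27me3. Deposited intervals were often cut: 95 regions were 1 interval each, and 137 were joined from 2 to 6.

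By chromosome, the share of eligible regions that were broad ran from 0.270% on chromosome 20 (1 of 370) to 2.93% on chromosome 18 (6 of 205). On chromosome 19, 6 of 963 were broad (0.623%, Wilson 95% interval 0.286 to 1.35), below the 1.70% over all chromosomes. The interval of chromosome 20 (0.0477 to 1.52) also ended below it, while that of chromosome 18 (1.35 to 6.24) included it. In 6 cases a pair of broad regions lay within 50 kb. The closest were both at TNRC18, 300 bp apart, and those at CDKN1B, an inhibitor of cyclin-dependent kinases, and APOLD1, 600 bp apart. CLECL1 and CD69, CHASERR and CHD2, GNA15 and S1PR4, and LINC00899 and LINC02939 made up the others.

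Most broad regions lay at gene starts. A start of a protein-coding gene lay within 1000 bp of 211 of 232 regions (90.9%, 86.6 to 94.0), against 9496 of 13386 narrower regions (70.9%, 70.2 to 71.7). A wider region meets a start more easily, and both ends of a gene were used where its strand was not given. Only lncRNA starts were met by 12 regions and none of the starts used by 9, and 33 regions met starts of several protein-coding genes. In all, 243 of 18997 protein-coding genes had a broad region at their start (1.28%; 2.52% of the 9625 with any eligible H3K4me3 region). The same held for 85 of 17077 lncRNA genes (0.498%; 3.76% of 2263).

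All 9 regions without one of the starts used lay inside annotated genes. Among the widest after MALAT1 were those at SAMSN1, an adaptor protein of haematopoietic cells, with 4200 bp, at CDKN2C, an inhibitor of CDK4 and CDK6, with 3750 bp, and at HNRNPH1, a splicing regulator, with 3600 bp. H3K79me2 covered all 7200 bp at MALAT1, all 4200 bp at SAMSN1 and 3600 bp at CDKN2C. These regions thus carried a mark of transcribed genes although none of the starts used lay within 1000 bp of them. Starts of other transcripts of these genes were not searched, so such starts may lie in the regions.

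Blood regulators were well represented. Of 32 haematopoietic transcription factors, 11 had a broad region (34.4%, 20.4 to 51.7), beside the 1.28% of all protein-coding genes. This was the largest share among the 20 lists, but with gaps of up to 300 bp joined the hosts of small RNAs gave 11 of 27 and this list and the splicing factors 11 of 32 each. The 11 were GATA2, BCL11A, RUNX1, ZEB2, GFI1 (4800 bp), MYB (4050 bp), MEIS1 and TAL1 (3900 bp each), ETV6 (3600 bp), MEF2C and SATB1 (3150 bp each). Eligible H3K4me3 of any width lay at 22 of the 32, with a median widest region of 2700 bp against 1200 bp over all protein-coding genes with H3K4me3. LYL1 and ZFPM1 (2250 bp each), IKZF1 (2100 bp) and CEBPA (1800 bp) stayed below the minimum. GATA1, KLF1, FLI1, ERG and LMO2 had no eligible H3K4me3 region at the starts used here.

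Few markers of mature blood cells or of neurons had H3K4me3 at their starts. Counting regions that touch H3K27me3 too, it lay at 1 of 23 granulocyte and monocyte effector genes, 4 of 27 lymphocyte genes, 1 of 22 neuronal genes and 1 of 23 erythroid and megakaryocytic genes. None of the first 3 lists had a broad region (0 of 23, 0 of 27 and 0 of 22; upper bounds of 14.3%, 12.5% and 14.9%). The erythroid gene was TFRC, the transferrin receptor, with 3450 bp. Of 30 haematopoietic surface and signalling genes, CD69, CD34 (3000 bp), a marker of stem and progenitor cells, and SPN (3000 bp), the leukosialin CD43, had a broad region. At SPN all 3000 bp also carried H3K27ac. The label of a myeloid leukaemia line thus met H3K4me3 at progenitor genes and little at mature effector genes.

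Signalling genes around BCR-ABL1 and JAK-STAT were mostly narrow, with a few at the top. Of 29 members, 4 had a broad region (13.8%, 5.50 to 30.6), beside 1.28% of all protein-coding genes and 2.52% of those with any eligible H3K4me3 region. They were the feedback inhibitors SOCS2 and CISH, the adaptor CRKL (3750 bp), a substrate of BCR-ABL1, and the kinase PIM1 (3450 bp), a STAT5 target. BCR itself had 2850 bp, and STAT5B had 2400 bp. ABL1 had 1050 bp, JAK2 and STAT5A had 900 bp each, and SOCS3 had 1050 bp. The median over the 28 genes with H3K4me3 was 1575 bp. ABL1, JAK2 and STAT5A thus lay below the median of 1200 bp for all protein-coding genes with H3K4me3, and the wide regions were at feedback genes, an adaptor and PIM1.

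Of the 32 splicing factors and RNA-binding proteins, 8 had a broad region (25%, 13.2 to 42.1): SRSF3 (4650 bp), HNRNPK (4350 bp), HNRNPA1 and HNRNPD (3900 bp each), PTBP1 (3450 bp), HNRNPU (3300 bp), TRA2B (3150 bp) and SRSF2 (3000 bp). Their median where present was 2325 bp. Of all protein-coding genes 1.28% had a broad region, and of those with any eligible H3K4me3 region 2.52%. Non-coding genes, most of them hosts of small nucleolar RNAs or microRNAs, gave 6 of 27 (22.2%, 10.6 to 40.8). All 27 had H3K4me3, and 3.76% of lncRNA genes with any eligible H3K4me3 region had a broad one (0.498% of all lncRNA genes). The 6 were SNHG3 (5700 bp), NEAT1 (5250 bp), SNHG1 (5100 bp), SNHG7 (3150 bp), SNHG32 and SNHG5 (3000 bp each). Among H3K4 methylation enzymes 3 of 18 had one (16.7%, 5.84 to 39.2), namely the methyltransferase KMT2D (4500 bp), HCFC1, a subunit of SET1 complexes, and the demethylase KDM1A (3000 bp each).

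The other lists held fewer, beside the same 1.28% of all protein-coding genes and 2.52% of those with any eligible H3K4me3 region. Chaperones and stress proteins gave 3 of 25, with XBP1 (3750 bp), a factor of the unfolded protein response, DDIT4 (3300 bp) and HSPA4 (3000 bp). Chromatin remodellers also gave 3 of 25, with ARID1B, CHD2 and SMARCA2, and housekeeping metabolism gave 3 of 26, with PGK1, ENO1 (4800 bp) and ACTB (3900 bp). Among the tumour suppressors, CDKN1B (4950 bp) and FUBP1 (3300 bp) had one. MEIS1 was the only one of 13 HOXA genes and cofactors, ZFP36L2 of 29 immediate early genes, KDM2A of 36 other histone enzymes and MRPL32 of 36 mitochondrial ribosomal protein genes. Cytosolic ribosomal protein genes gave 3 of 68 (4.41%, 1.51 to 12.2), RPL9, RPS3 and RPL13, and cell cycle genes gave 0 of 26 (upper bound 12.9%). These lists were put together with earlier results of these data known, so no test was made on them.

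**Figure D2:**
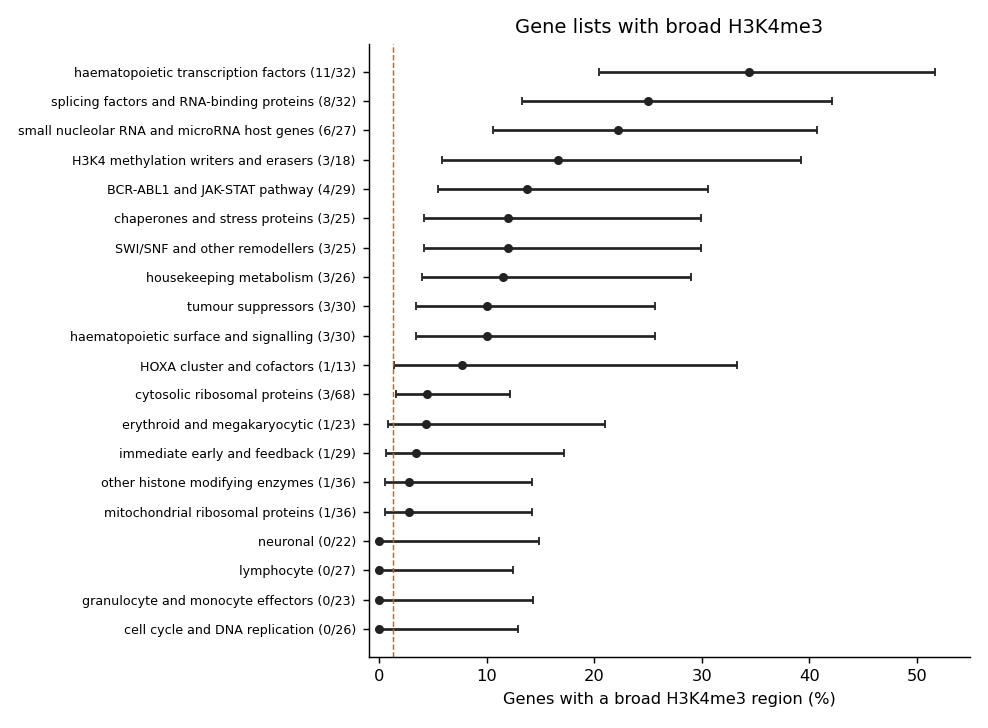
Each point gives the percentage of a list's genes with a broad H3K4me3 region at a start (x axis), the bar is the Wilson 95% interval and counts stand beside each list name. The dashed line is the 1.28% of all protein-coding genes; haematopoietic transcription factors stand at 34.4% and 4 lists stand at 0. The line does not apply to the non-coding hosts of small RNAs: the share was 0.498% of all lncRNA genes and 3.76% of those with any eligible H3K4me3 region.

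Of the microRNA genes in the RefSeq table, 5 lay inside 4 of the broad regions. The mature sequences of miR-142, a microRNA abundant in blood cells, and miR-191 are printed with the seed, bases 2 to 8, in capitals.
miR-142-3p: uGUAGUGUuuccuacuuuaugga
miR-142-5p: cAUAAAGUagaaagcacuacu
miR-191-5p: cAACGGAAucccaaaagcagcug
The miR-142 gene lay in the region of its host MIR142HG (chr17:58330351-58333800, 3450 bp), where H3K27ac covered 2250 bp. The genes of miR-191 and miR-425 shared a region of 3150 bp on chromosome 3 (chr3:49020001-49023150). The remaining regions, of 3300 and 3000 bp, held the genes of miR-4466 and miR-3153. No seed was shared among the mature sequences listed for these genes.

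Other marks were not used by the rule, but width was, and width raises any overlap. H3K9ac, H3K4me2 and H3K79me2 each overlapped all 232 regions by at least 1 bp (100%, 98.4 to 100), beside 84.0%, 91.0% and 64.0% of all eligible regions. In narrower regions the shares were 83.7%, 90.9% and 63.4%. Regions of 2000 bp up to the minimum already stood at 99.8%, 99.9% and 97.6%. What the marks covered differed more for H3K79me2 than for the others. It covered a median 95% of a broad region, 82.4% of a region between 2000 and 3000 bp and 50% of a narrower region. H3K9ac covered a median 95.2%, 93.8% and 100%, and H3K4me2 81.0%, 81.2% and 100%.

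H3K27ac split the regions into nearly equal groups. It overlapped 104 of 232 (44.8%, 38.6 to 51.3), beside 8.28% of all eligible regions and 7.64% of narrower ones, a difference of 37.2 percentage points (30.9 to 43.6). The share went up through the width bands from 5.84% under 1000 bp to 8.37%, 20.0%, 39.1% and 66.7% at 4000 bp and over. In a window that does not grow with the region, its central 500 bp, H3K27ac lay in 18.1% of broad regions (13.7 to 23.6), 9.34% of regions between 2000 and 3000 bp (7.55 to 11.5) and 6.47% of narrower ones (6.07 to 6.90). Within 1000 bp outside the edges it lay beside 25.9%, 14.4% and 8.87%. These windows do not lie at the same distance from the start in broad and narrower regions, and the part of position in the difference was not tested.

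Where H3K27ac was present, it covered a median of 675 bp, so most of these regions carried it in small patches. The most H3K27ac was at CISH, with 6450 of 6900 bp (93.5%), at EGFL7, with 6300 of 9600 bp (65.6%), and at SOCS2, with 3150 of 7950 bp (39.6%). Of these, CISH and SOCS2 are STAT5 target genes. Among the 128 regions without a called H3K27ac interval were GATA2 and MALAT1, and the main RUNX1 region. H3K27ac was called in 8.28% of all eligible regions, against 84.0% for H3K9ac, and the part of sparse calling in its absence was not tested. At GATA2 another H3K4me3 region began 7850 bp after the start, and the broad one ended at 7700 bp. The nearest H3K27ac (8450 to 9800 bp) overlapped that other region. With gaps of up to 300 bp joined, both would form a single region that H3K27ac overlaps. The narrower RUNX1 region held 1650 bp of H3K27ac on 3150 bp. At ETV6, a repressor of the ETS family, it covered 2850 of 3600 bp.

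**Figure D3:**
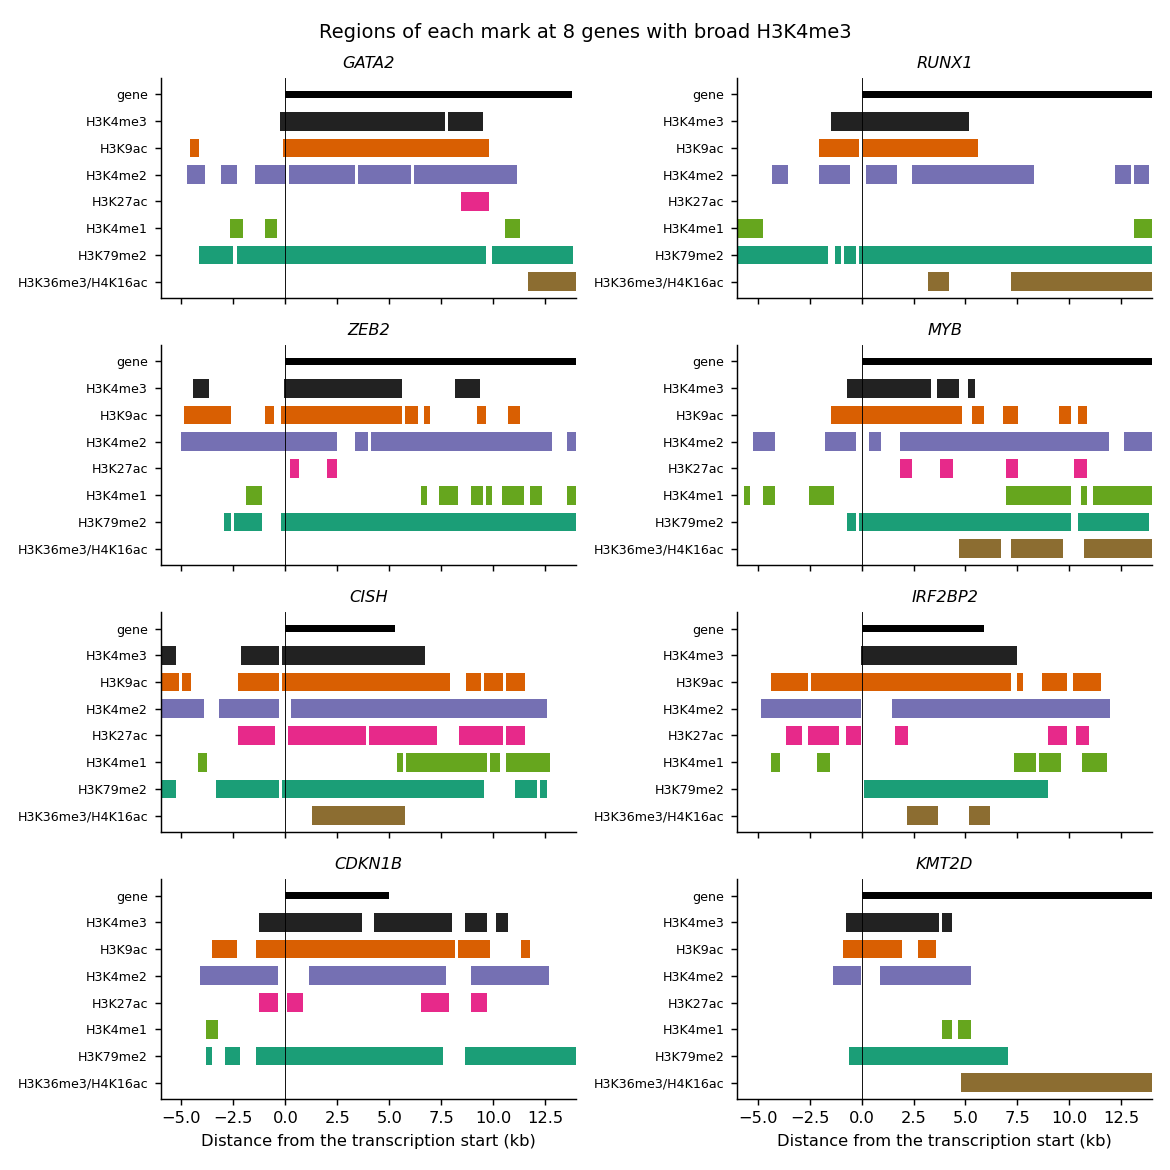
Bars show the joined regions of each mark around the starts of 8 genes (x axis, distance from the transcription start in kb, downstream to the right; the thin bar is the annotated gene, cut at 14 kb). H3K27ac runs along most of the broad H3K4me3 region at CISH (6450 of 6900 bp) and is absent from the broad region at GATA2, RUNX1 and KMT2D. At GATA2 the next H3K4me3 region downstream carries H3K27ac. H3K79me2 extends over all 8.

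H3K4me1 kept to the edges. It overlapped 47 regions (20.3%, 15.6 to 25.9), beside 8.94% of all eligible and 8.74% of narrower regions. It also overlapped 16.8% (14.39 to 19.45) of regions between 2000 and 3000 bp. Yet in the central 500 bp it lay in 1 of 232 broad regions (0.431%, 0.0761 to 2.40), against 5.52% of narrower regions (5.15 to 5.92) and 0.719% of those between 2000 and 3000 bp. Within 1000 bp outside the edges it lay beside 127 regions (54.7%, 48.3 to 61), against 43.5% of narrower ones and 58.8% of those between 2000 and 3000 bp. The largest H3K4me1 shares were at CLIC1, a chloride channel protein, with 1200 of 3600 bp, RPS3 with 1050 of 3150 bp and PABPC4, a poly(A)-binding protein, with 1050 of 3450 bp.

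The set labelled H3K36me3 and H4K16ac overlapped 48 regions (20.7%, 16 to 26.4), beside 9.74% of all eligible regions and 9.55% of narrower ones. In the central 500 bp the shares were 8.19% (5.30 to 12.4) of broad and 7.54% (7.10 to 8.0) of narrower regions, with overlapping intervals. The narrower share mixed 11.24% (10.56 to 11.97) under 1000 bp with 2.21% (1.83 to 2.66) between 1000 and 2000 bp. Regions between 2000 and 3000 bp stood at 4.31% (3.13 to 5.91), an interval that just overlapped that of broad regions. Broad regions under 4000 bp stood at 5.4% (2.98 to 9.71), and wider ones at 18.75% (10.19 to 31.94). Gene length went with the presence of this set. Of the 102 regions with exactly 1 RefSeq promoter start of known strand inside them, 24 carried it, at genes of median 6455.5 bp. The 78 without it lay at genes of median 42899.5 bp. In 20 of the 102 another gene lay within 1000 bp; without these, the medians were 6091.5 bp (20 regions) and 45512 bp (62 regions). Combining the 3 partial marks, 88 regions had none of H3K27ac, H3K4me1 and H3K36me3, 68 had H3K27ac alone, and 11 had all 3.

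**Figure D4:**
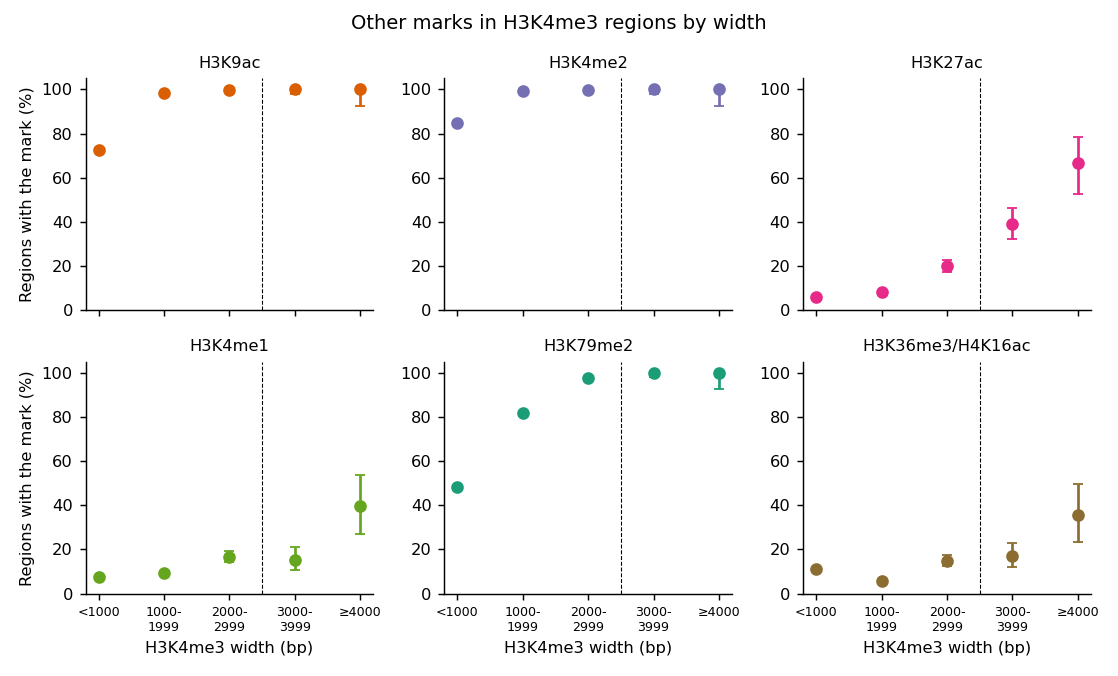
Points give the percentage of H3K4me3 regions overlapped by each mark (y axis) in 5 width bands (x axis, bp) with Wilson 95% intervals; the dashed line separates broad regions from narrower ones. H3K27ac goes from 5.84% to 66.7% across the bands, while H3K9ac, H3K4me2 and H3K79me2 are at 100% in both broad bands.

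Broad regions extended into the gene. For the same 102 regions, oriented by that 1 start, a median of 200.5 bp lay upstream of the start and 3033 bp downstream. In 93 of them (91.2%, 84.1 to 95.3) the downstream part was the longer one. Among the 82 with no other gene within 1000 bp, a set chosen after seeing the data, 79 reached farther downstream (96.3%, 89.8 to 98.8), against 94.3% (93.4 to 95.1) of such narrower regions. Narrower regions had medians of 113 and 945 bp, and 92.6% (91.8 to 93.4) reached farther downstream. In the 18 such regions of at least 4000 bp, the medians were 180.5 and 4221 bp, and all 18 were longer downstream. In regions with 1 start the added width therefore lay mostly downstream, and the direction itself was shared with narrower regions. Another orientation used the start nearest to the middle of the region, which favours central starts where a region holds several. So oriented, 169 broad regions had larger upstream parts, with medians of 716 bp upstream and 2826 bp downstream. Of these, 84.6% (78.4 to 89.3) were longer downstream. Narrower regions so oriented (5314) had medians of 138 and 936 bp, and 88.3% were longer downstream. In 6 of the 102 the region covered the whole gene.

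Along the gene, H3K79me2 mostly ran past the end of the H3K4me3. In genes of at least 10 kb, the stretch from 5 to 10 kb after the start was covered by H3K79me2 to a mean of 88.2% at 78 broad regions, 65.7% at 272 regions between 2000 and 3000 bp and 27.7% at 3329 narrower regions. It was fully covered at 54 of the 78 (69.2%), against 41.2% and 10.2%. H3K4me2 covered a mean of 24.4%, 12.5% and 5.08% of the stretch, and H3K4me1 15%, 11.3% and 4.65%. H3K36me3 differed little: it covered a mean of 53.0%, 51.6% and 49.7% and was present at 70.5% (59.6 to 79.5), 69.9% and 68.0%. The H3K79me2 regions met by broad regions had a median width of 10575 bp, against 4050 bp for narrower regions.

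Within 10 kb of this start, H3K79me2 covered a mean of 81.6% downstream and 16.9% upstream at broad regions, against 35.5% and 8.19% at narrower ones. H3K36me3 covered 30.2% downstream at broad regions and 36.2% at narrower ones, but the broad bands differed, with 28.1% at 84 regions under 4000 bp and 40.0% at the 18 wider ones. H3K4me2 dipped at the start, to 29.1% of broad regions at 100 to 200 bp after it, and stood at 93.1% by 1500 bp. H3K4me1 was at 0 around the start.

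**Figure D5:**
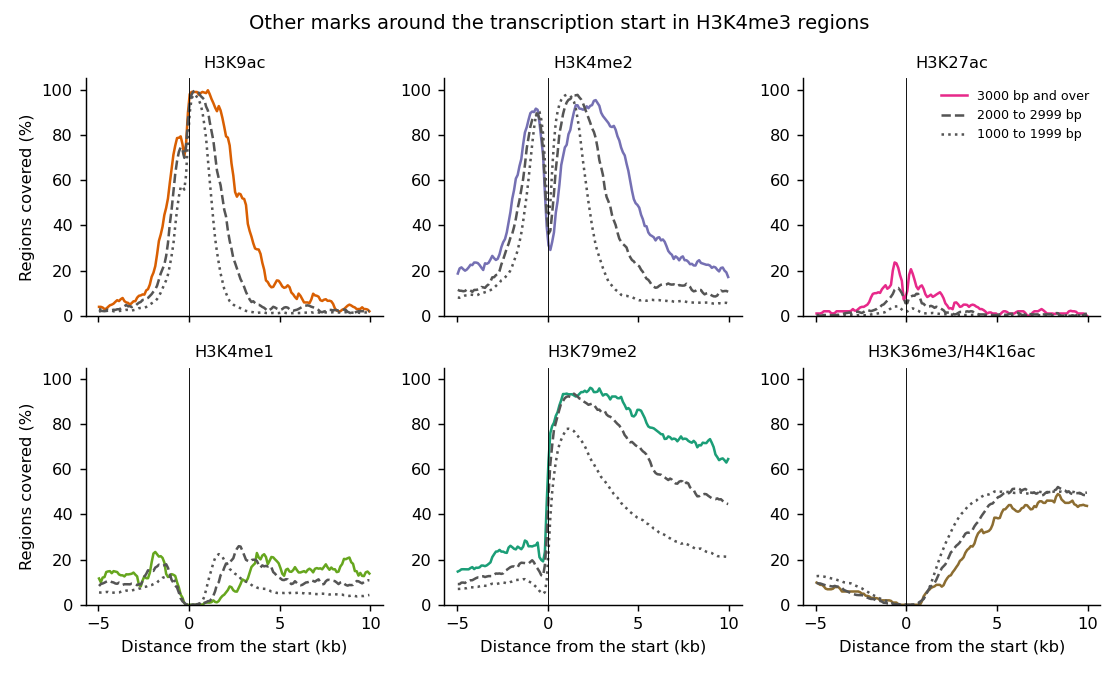
Lines give the percentage of regions with exactly 1 RefSeq promoter start inside them that each mark covers (y axis) in steps of 100 bp from the start (x axis, kb, downstream to the right): 102 broad regions (coloured), those between 2000 and 3000 bp (dashed) and those between 1000 and 2000 bp (dotted). H3K79me2 stays highest downstream of broad regions, H3K4me2 dips to 29.1% just after the start, and H3K36me3 rises later in broad regions.

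Promoter sequence differed little in CG content. RefSeq promoters with their start in a broad region (172) held a median of 30 CG (interquartile range 24 to 37), those in narrower regions (5365) held 28 (22 to 36), and those outside eligible H3K4me3 (10042) held 14. Motifs were searched on both strands; GGGCGG and the NRF1 motif contain CG, as does CCGGAAG, which can share letters with TTCNNNGAA. The ETS motif CCGGAAG was in 15.1% (10.5 to 21.2) of broad, 25.2% (24.1 to 26.4) of narrower and 14.1% of all promoters. The TATA box TATAAA was in 7.56% (4.47 to 12.5), 3.88% (3.39 to 4.43) and 9.68%. The intervals of broad and narrower promoters did not overlap for the ETS letters, and for TATAAA they were just apart; the differences were not tested. For both motifs the interval of the broad promoters held the share of all promoters. Promoters in regions between 2000 and 3000 bp held the ETS letters in 24.4% (21.4 to 27.7) and TATAAA in 6.39% (4.81 to 8.45), and the interval of the latter overlapped that of broad regions.

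For the other motifs the intervals overlapped. The GC box GGGCGG was in 74.4% (67.4 to 80.4) of broad and 76.8% (75.6 to 77.9) of narrower promoters, and in 58.3% of all. The CCAAT box was in 40.7% (33.6 to 48.2), 35.8% (34.5 to 37.1) and 36.4%. The STAT letters TTCNNNGAA, found 4 times at CISH, were in 5.81% (3.19 to 10.4), 5.76% (5.17 to 6.42) and 7.02%, so they were not more frequent at broad regions. The palindromic motif of NRF1, a factor of mitochondrial gene expression, was in 1.16% (0.320 to 4.14), 2.91% (2.49 to 3.39) and 1.77%.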

How the data were processed

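Chromatin of KBM-7 cells was crosslinked, sheared to about 300 bp and immunoprecipitated, per the labels' protocols. The authors deposited 1 list of intervals (chromosome, start, end and mark name), and no read number or height per interval is given. Listed in the submitters' processing notes are GRCh38, MACS, Bowtie2 and cutadapt; for versions, roles, thresholds and the input behind each call, the sources used here give nothing. Starts counted from 0 and from 1 both occur; the remainder on a 50 bp grid told them apart, and all are given from 1. Only chromosomes 1 to 22 and X entered, and 1 label in the file that matches no sample was set aside.

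Intervals of each mark were joined where they overlapped or touched. Genes, promoters and microRNAs came from RefSeq tables of GRCh38.p14. Strand and start were known for 15811 of 19970 protein-coding genes (79.2%). For these the RefSeq promoter start and the 5′ gene end served as starts, and for the others both gene ends. Starts of other transcripts were not searched. A region was at a gene when it overlapped 1000 bp around any of the starts used. Shares have Wilson 95% intervals, and differences of shares have intervals made from these. With 1 library per mark no p-value was computed. All 604 entries of the 20 gene lists matched; genes on left-out DNA were not counted. Python 3.11.15, numpy 2.4.6, pandas 2.3.3 and scipy 1.17.1 were used, and the interval functions were tested on simulated data.

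The regions, gene lists and tests were chosen with earlier results of these data known. The genes named were the 15 widest regions; up to 4 genes per list with the widest broad region; the 3 regions with the most H3K27ac; the 5 widest without a start; the 3 with the largest H3K4me1 share; and 3 on each side of the minimum width. Some genes that this rule names are not reported here. Further genes, list members below the minimum width among them, were chosen after their values were seen. The alternatives were a minimum of 4000 bp, a joining gap of 300 bp, all chromosomes, regions that touch H3K27me3 kept, other windows, overlaps and comparison regions, and, chosen after seeing the data, intervals not joined and starts with no other gene near.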

Additional observations from a re-analysis of the deposited data

How the results depend on the processing

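Each library stands alone, depth is unknown, and region edges follow the caller's thresholds, so small differences in width cannot be judged. No paired analysis was possible because each mark has 1 library and no replicate. Of 211 alternative values, 154 kept within the error of the main value, 57 moved beyond it and 0 reversed. Most of these values were counts or shares, which cannot change sign, so the 0 says little. The cause was not tested for those that moved. The number of regions was 48 with a minimum of 4000 bp, 458 with gaps of up to 300 bp joined, 372 with all chromosomes kept and 130 with intervals not joined, a setting chosen after seeing the data. H3K27ac overlapped 66.7% at 4000 bp and over, 29.7% with an overlap of at least 500 bp and 27.6% when only wider H3K27ac regions counted. H3K4me1 overlapped 39.6% at 4000 bp and over, 46.8% with all chromosomes, 6.47% with an overlap of 500 bp, 9.91% with wider H3K4me1 regions and 13.1% with intervals not joined. H3K36me3 overlapped 35.4% at 4000 bp and over and 37.1% with all chromosomes, where H3K9ac stood at 97.8%. Set against regions from 1000 bp up to the minimum in place of all narrower ones, the difference was 1.46 percentage points for H3K9ac, 0.774 for H3K4me2 and 15.9 for H3K79me2.

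In the central 1000 bp, H3K4me2 lay in 96.6% of the broad regions, H3K27ac in 24.6% and H3K79me2 in 98.3%. Within 5 kb downstream, H3K9ac covered 61.2% and H3K4me2 75.1% of bp. Of regions with no other gene within 1000 bp, chosen after seeing the data, 96.3% reached farther downstream, against 91.2%. The CCAAT box was in 33.6% of promoters that were the only gene in the region. Protein-coding genes with a broad region numbered 48 at 4000 bp, 525 with gaps joined and 391 with all chromosomes. At 4000 bp the list counts were 6 for haematopoietic transcription factors, 3 for small RNA hosts, 2 for splicing factors and for the BCR-ABL1 pathway, 1 each for surface genes, tumour suppressors and H3K4 enzymes, and 0 for HOXA genes, cytosolic and mitochondrial ribosomal proteins, other histone enzymes, remodellers, chaperones and erythroid genes. With gaps joined they were 11 each for small RNA hosts, splicing factors and haematopoietic transcription factors, 9 for cytosolic ribosomal proteins, 8 for chaperones, 6 for tumour suppressors and for housekeeping metabolism, 5 for surface genes and for remodellers, 3 for other histone enzymes and for immediate early genes, and 2 for HOXA genes. With all chromosomes they were 8 for cytosolic ribosomal proteins and 2 each for cell cycle genes and other histone enzymes. Tumour suppressors numbered 5 over the whole gene span, and cell cycle genes 1 when overlap with H3K27me3 was kept.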

Other observations

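Among regions of the gene lists, H3K27ac differed in how often it was present, a count made after the values were seen. It overlapped 9 of the 12 broad regions at haematopoietic transcription factors (75%, Wilson 95% interval 46.8 to 91.1) and 1 of the 8 at splicing factors and RNA-binding proteins (12.5%, 2.24 to 47.1), against 44.8% of all broad regions. The set labelled H3K36me3 and H4K16ac overlapped 2 of the 12 (16.7%, 4.70 to 44.8) and 5 of the 8 (62.5%, 30.6 to 86.3). The intervals of H3K27ac and those of H3K36me3 overlap between these lists, at 46.8 and 47.1 and at 30.6 and 44.8, and the difference was not tested. At the hosts of small RNAs the numbers were 4 of 6 regions for H3K27ac and 5 of 6 for H3K36me3.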
